A study of Mus musculus with 10 samples.

Results

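Genes for the contents of the lysosome were examined in sorted mouse liver cells that are labelled as hepatic stellate cells (HSCs). The 45 genes were chosen by symbol as proteases, sugar-cleaving enzymes, lipid-cleaving enzymes with their activators, and membrane proteins of this organelle. All 45 were found among the 25233 entries of the deposited table that carry a gene symbol, out of 62322 entries in all, and all 45 passed the filter on low values and were tested. By role they were 14 proteases, 15 glycosidases and sulfatases, 7 lipid hydrolases and activators, and 9 membrane and other proteins.

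RNA-seq was run on 5 libraries of hypertrophied HSCs (hypHSCs) and 5 of quiescent HSCs (qHSCs), all from livers of C57BL/6J mice. For hypHSCs, mice received the CDAHFD, a choline-deficient, L-amino acid-defined, high-fat diet. hypHSC 1 and 2 followed 13 weeks of diet at 19 weeks of age, and hypHSC 3, 4 and 5 followed 12 weeks at 18 weeks of age. The qHSC donors ate the standard diet (SD) and were aged 36 weeks for qHSC 1, 2 and 5 and 34 weeks for qHSC 3 and 4. Diet, age, digestion and the fluorescence used in the sort (green for hypHSCs, blue for qHSCs) changed together and cannot be told apart. The preparations were chosen for RNA quality, nothing ties a library to 1 mouse, and p-values therefore measure the spread between preparations.

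The lysosome is an acidic compartment in which proteins, glycans and lipids from endocytosis, phagocytosis and autophagy are degraded. Most of its soluble hydrolases are made as precursors in the endoplasmic reticulum, tagged with mannose 6-phosphate and sorted from the Golgi, while the proton pump of the limiting membrane keeps the lumen acidic. Cathepsins and CD68 are abundant in macrophages and other professional phagocytes, and HSCs of the healthy liver are best known for storing retinoids in lipid droplets. Many lysosomal genes carry an E-box of the CLEAR type, bound by the transcription factors TFEB, TFE3, MITF and TFEC.

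The letters of this E-box were searched in the 300 bases around the canonical start (250 before to 50 after, GRCm39, GENCODE annotation, both strands). GTCACGTG, which reads CACGTGAC on the other strand, was present in 10 of 45 members (22.2%) and in 555 of 21770 protein-coding genes (2.55%). It overlaps the core CACGTG, which was present in 12 of 45 members (26.7%) and in 7.81% of all promoters, and TCACGTGA, which was present in 4 of 45 members (8.89%) and in 1.11% of all promoters. The 10 members with GTCACGTG were *Ctsb*, *Ctsd*, *Glb1*, *Gla*, *Naglu*, *Sgsh*, *Arsa*, *Lamp1*, *Cln3* and *Mcoln1*. Because this E-box is known from lysosomal genes, its larger share among the members is not an independent result. A match of letters is a description of the sequence and not a measured binding site. The 4 examples printed here lie outside the annotated exons of their own gene, on the strand of the gene and with CACGTG in capitals. *Ctsd* (chr7:141941792-141941821, minus strand), *Gla* (chrX:133501931-133501960, minus strand) and *Glb1* (chr9:114230086-114230115, plus strand) hold the longer form, and *Gaa* (chr11:119158637-119158666, plus strand) holds the core alone. They are shown because these 4 enzymes differ in their measured change, described further on.
Ctsd: tcttccttccccCACGTGacctgtatccag
Gla: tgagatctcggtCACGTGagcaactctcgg
Glb1: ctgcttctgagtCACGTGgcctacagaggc
Gaa: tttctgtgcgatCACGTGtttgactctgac

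Depth ranged from 30534719 to 43283589 reads on entries with a symbol in hypHSCs and from 35640104 to 47317028 in qHSCs. The sorted cells were checked against marker lists. All 9 quiescent HSC markers were lower in hypHSCs, where they summed to 7470 to 23786 normalized counts (reads divided by the size factor of the library), against 731410 to 1356300 in qHSCs, and *Gfap* and *Ngfr* were at 0 in at least 1 hypHSC library. Of 14 core macrophage markers 13 were higher in hypHSCs, where the list summed to 932720 to 1438600 against 6741.3 to 122880 in qHSCs, and no marker of that list was at the floor of 3 reads throughout either group. The 7 lipid-associated macrophage markers were all higher, with sums of 496040 to 699680 against 4975.2 to 6670.6. All 4 tested neutrophil markers (1861.1 to 8039.8 against 11.99 to 391.9) and all 3 tested cholangiocyte markers (435.75 to 2711.2 against 4.72 to 56.12) were higher too. Of 6 Kupffer cell markers 3 were higher, but the sums overlapped (18347 to 34538 against 1270.4 to 44861). Of 8 myofibroblast markers 2 were higher, 2 lower and 4 not called, and all 4 proliferation markers were higher. Of 7 tested sinusoidal endothelial markers 3 were higher and 1 lower, and 0 of 6 hepatocyte markers were called. Of the tested markers, 0 of 3 for T and NK cells, 1 of 2 for B cells and 1 of 2 for mesothelial cells were higher. The part of these markers' cells in the results on lysosomal genes was not tested, and in bulk RNA fewer cells of a type and less RNA per cell cannot be told apart.

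Lysosomal transcripts took up a larger part of the hypHSC libraries. The 45 members held 7.33%, 8.83%, 9.32%, 5.70% and 2.96% of the symbol-bearing reads in hypHSC 1 to 5, and 1.38%, 1.16%, 0.909%, 1.44% and 0.958% in qHSC 1 to 5. Every hypHSC library was therefore above every qHSC library, and hypHSC 5 was the nearest to them. Reads without a symbol made up 10.8% to 29.1% of the hypHSC and 8.98% to 10.2% of the qHSC libraries, and mitochondrial reads 2.21% to 12.8% and 1.25% to 1.61%. Over all reads, the members held 2.60% to 8.09% in hypHSCs and 0.820% to 1.29% in qHSCs, again without overlap. The mean summed count was 7.27 times that of qHSCs over all members, 10.1 times over the proteases, 4.81 times over the lipid group, 5.40 times over the membrane group and 2.20 times over the glycosidases and sulfatases. A single gene, *Ctsb*, made up 35.5% ± 7.86 (SD, n = 5) of the member reads in hypHSCs and 20.2% ± 4.66 (SD, n = 5) in qHSCs.

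**Figure D1:**
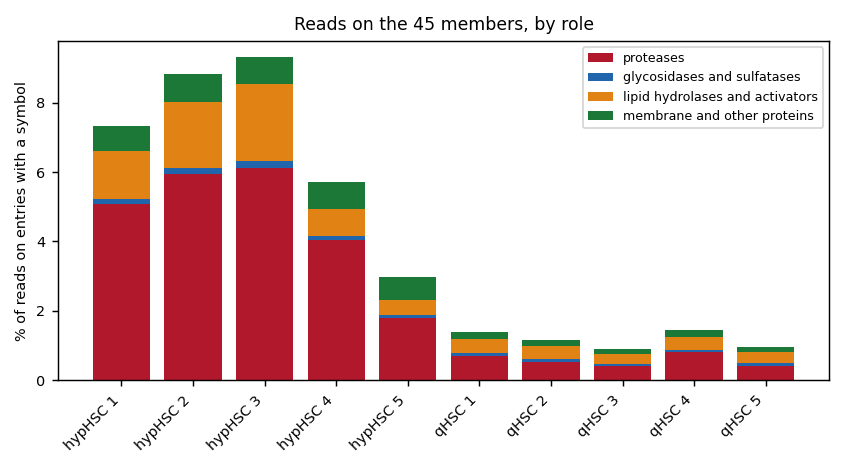
Percentage of the reads on entries with a symbol that fell on the 45 members in each library, stacked by role (no error bars, 1 library per bar). The 5 hypHSC bars run from 2.96% to 9.32% and the 5 qHSC bars from 0.909% to 1.44%, and proteases form the largest block in each hypHSC bar.

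A gene counted as a DEG, and as called, when it changed by 1 or more on the log2 scale in either direction with an adjusted p up to 0.05 (limma on log2(normalized count + 1), Benjamini-Hochberg over 14630 genes). On these terms 21 members were higher in hypHSCs (46.7%), 5 were lower (11.1%) and 19 were not called. Among all genes tested, 39.5% were called, 17.8% higher and 21.7% lower. The median log2 fold change was 0.99 over the members and -0.20 over all genes tested. In 21 members every hypHSC library was above every qHSC library, and in 6 every one was below, against 17.6% and 22.0% of all genes tested. When the libraries were instead scaled on *Hprt*, *Pgk1* and *Actb*, 15 members were higher and 10 lower. On that scale the median over all genes was -1.13, and 1467 of all genes were called higher and 7006 lower.

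The 4 roles differed in their counts. Proteases had 8 higher, 2 lower and 4 not called, with a median log2 fold change of 1.94. The membrane group had 6 higher, 1 lower and 2 not called, with a median of 1.47. Lipid hydrolases and activators had 3 higher, 1 lower and 3 not called, with a median of 0.72. Glycosidases and sulfatases had 4 higher, 1 lower and 10 not called, with a median of 0.08. This median was -0.27 when libraries were scaled to the same total and -0.85 on the 3 reference genes. Those scalings moved the median of all genes too, from -0.20 to -0.55 and -1.13. On the 3 reference genes the lipid group was also negative (-0.22). The median of glycosidases and sulfatases was 0.42 with DESeq2, -0.0094 at 12 weeks of diet alone and -0.046 to 0.48 without single libraries. The difference between roles itself was not tested.

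**Figure D2:**
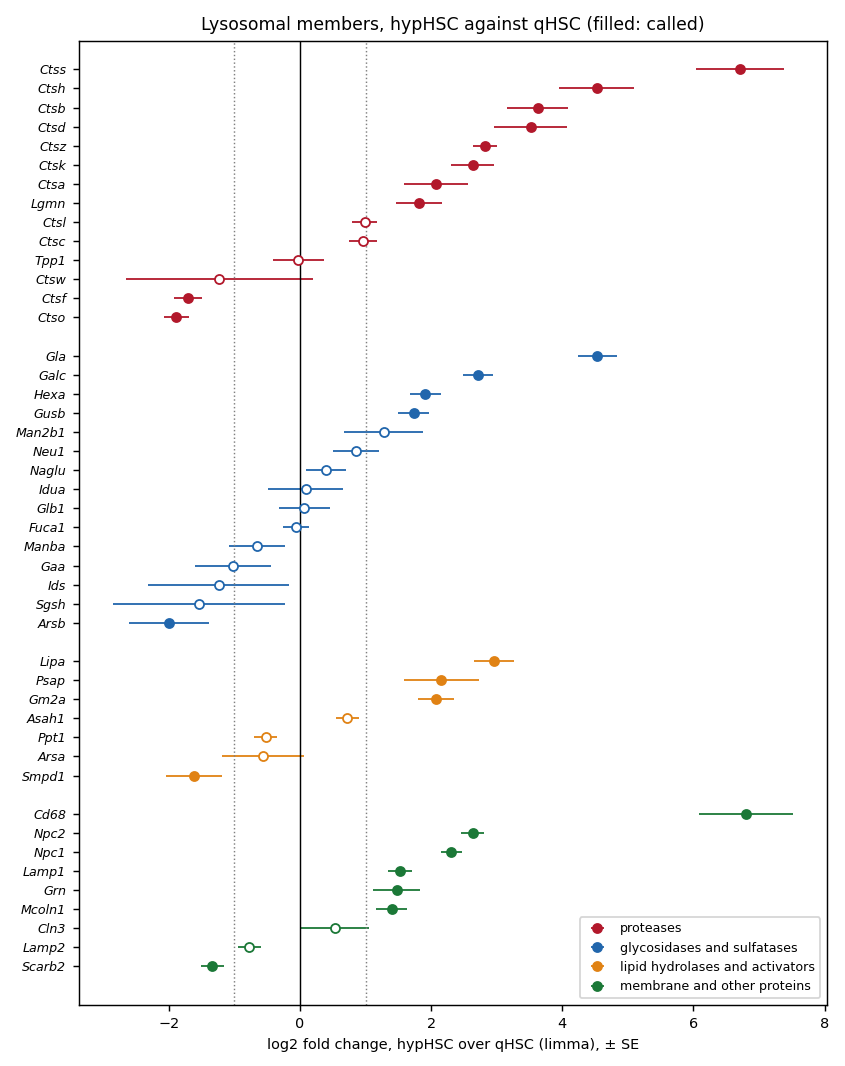
Log2 fold change of each of the 45 members, hypHSC over qHSC, with the limma standard error as a bar; filled points were called, open points were not, and dotted lines mark the fold threshold of 1. *Cd68* (6.80) and *Ctss* (6.71) lie furthest to the right, and *Arsb* (-1.997) and *Ctso* (-1.89) furthest to the left of those called.

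Among the proteases, *Ctss* showed the largest rise. It encodes cathepsin S, a cysteine protease that trims the invariant chain of MHC class II, and lies at chr3:95434094-95463716 (mm39). In hypHSC 1 to 5 it had 391360, 309280, 272500, 374330 and 365920 normalized counts, and in qHSC 1 to 5 it had 8196.5, 882.71, 2224.9, 15479 and 1427.4. The groups did not overlap, the hypHSC libraries lay close together, and qHSC 4 and qHSC 1 were the high libraries of their group. On the log2 scale the difference was 6.71 (SE 0.68, adjusted p = 1.5e-05 by limma), and it was 7.91 without qHSC 1 and 4. With DESeq2 on the reads recovered from these counts it was 5.97.

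*Ctsb* (chr14:63359911-63383370) encodes cathepsin B, a cysteine endopeptidase and exopeptidase, and was the protease with the highest level per exon length in both groups. Its level was 3329 ± 1560 FPKM in hypHSCs and 319 ± 135 FPKM in qHSCs (SD, n = 5 each). FPKM is the number of fragments scaled to the joint length of all exons and to the fragments on entries with a symbol. On the length of the canonical transcript alone, *Ctsb* (5348 FPKM) was below *Ctss* (5956 FPKM) in hypHSCs. In hypHSC 1 to 5 its normalized counts were 1117100, 1422200, 1301100, 1037100 and 306850, and in qHSC 1 to 5 they were 106260, 64857, 51534, 123400 and 52869. No libraries of the groups overlapped, although hypHSC 5 fell well short of the other 4. limma gave a log2 fold change of 3.62 (SE 0.47, adjusted p = 8.5e-05). It was 4.02 without hypHSC 5 and 4.03 without qHSC 1 and 4, the highest of their group.

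*Ctsd*, the main aspartic protease of the lysosome and one of the members with GTCACGTG, had 289820, 373750, 341490, 114090 and 41646 normalized counts in hypHSC 1 to 5 and 20078, 18147, 11016, 17359 and 12876 in qHSC 1 to 5. All hypHSC libraries were higher, with hypHSC 4 and 5 at the low end. Its log2 fold change was 3.52 (SE 0.55, adjusted p = 0.00033).

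*Ctsh*, an aminopeptidase, followed *Ctss* in the pattern among qHSCs. It ran from 12038 to 20690 in hypHSCs, and in qHSC 1 to 5 it stood at 1683.5, 291.4, 355.07, 2782.7 and 466.06, again highest in qHSC 4 and 1. The log2 fold change was 4.52 (SE 0.57, adjusted p = 7.4e-05), and 5.55 without these 2 libraries. With DESeq2 it was 4.01.

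The other proteases that rose had smaller folds. *Ctsz*, a carboxypeptidase, rose by 2.82 on the log2 scale (SE 0.18) and *Ctsk*, the collagen-degrading cathepsin known from osteoclasts, by 2.63 (SE 0.33), both with separate groups. *Ctsa*, the protective protein of beta-galactosidase and neuraminidase, rose by 2.07 (SE 0.49) and *Lgmn*, the asparaginyl endopeptidase that processes other cathepsins, by 1.81 (SE 0.35). In the last 2 genes a single library made the groups overlap: hypHSC 5 had 8829.9 counts of *Ctsa* within the qHSC range of 6518.1 to 11334, and 24086 of *Lgmn* below the 26629 of qHSC 4. *Lgmn* was not called on the scale of the 3 reference genes (0.87). Of the exon bases of *Ctsa*, 36.9% are shared with *Neurl2* and *Pltp* on the other strand, which the counting did not separate, and *Pltp* itself was at 5038 ± 1447 in hypHSCs and 8213 ± 1030 in qHSCs (SD, n = 5 each). Exon bases are also shared with other-strand genes in *Ctsz* (29.2%, with *Nelfcd*) and *Grn* (33.1%, *Fam171a2* among them), with a same-strand gene in *Ctsd* (29.2%), and with genes of both strands in *Ctsl* (26.1%).

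Not every cathepsin rose. *Ctso* had 1646.7, 1814.8, 1832, 1241.1 and 1746.9 normalized counts in hypHSC 1 to 5 and 6353.7, 6663, 4219.1, 6094.2 and 7570 in qHSC 1 to 5. Every hypHSC library was below every qHSC library, and neither group held a library far from the rest. It fell by 1.89 on the log2 scale (SE 0.19, adjusted p = 1.3e-05), and *Ctsf*, a further cysteine cathepsin, fell by 1.71 (SE 0.22, adjusted p = 8e-05).

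*Ctsl* and *Ctsc* stayed just under the fold threshold by limma. *Ctsl*, cathepsin L, had 20895 to 34472 counts in hypHSCs and 11750 to 18488 in qHSCs, a log2 fold change of 0.99 (SE 0.19). It was called when hypHSC 4 (1.10), qHSC 1 (1.03) or qHSC 2 (1.07) was left out. *Ctsc*, the dipeptidyl peptidase that activates granule serine proteases, had 22454 to 38705 against 11694 to 21126, a log2 fold change of 0.96 (SE 0.21), and was called without hypHSC 5 (1.05) or qHSC 4 (1.09). In both genes the groups were separate.

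*Tpp1*, a tripeptidyl peptidase, had 15072, 18586, 18345, 9222.6 and 4059.5 normalized counts in hypHSC 1 to 5 and 12561, 13166, 8006.1, 13003 and 12162 in qHSC 1 to 5. The hypHSC libraries lay on both sides of the qHSC range, with 3 above and hypHSC 5 below. The fitted log2 difference was -0.02 (SE 0.39, adjusted p = 0.96), and its sign changed with the scaling. *Ctsw*, a cathepsin of cytotoxic lymphocytes, had 0, 41.41, 0, 35.67 and 0 counts in hypHSC 1 to 5 and 12.67, 0, 9.45, 43.64 and 16.48 in qHSC 1 to 5, too few to show a difference.

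**Figure D3:**
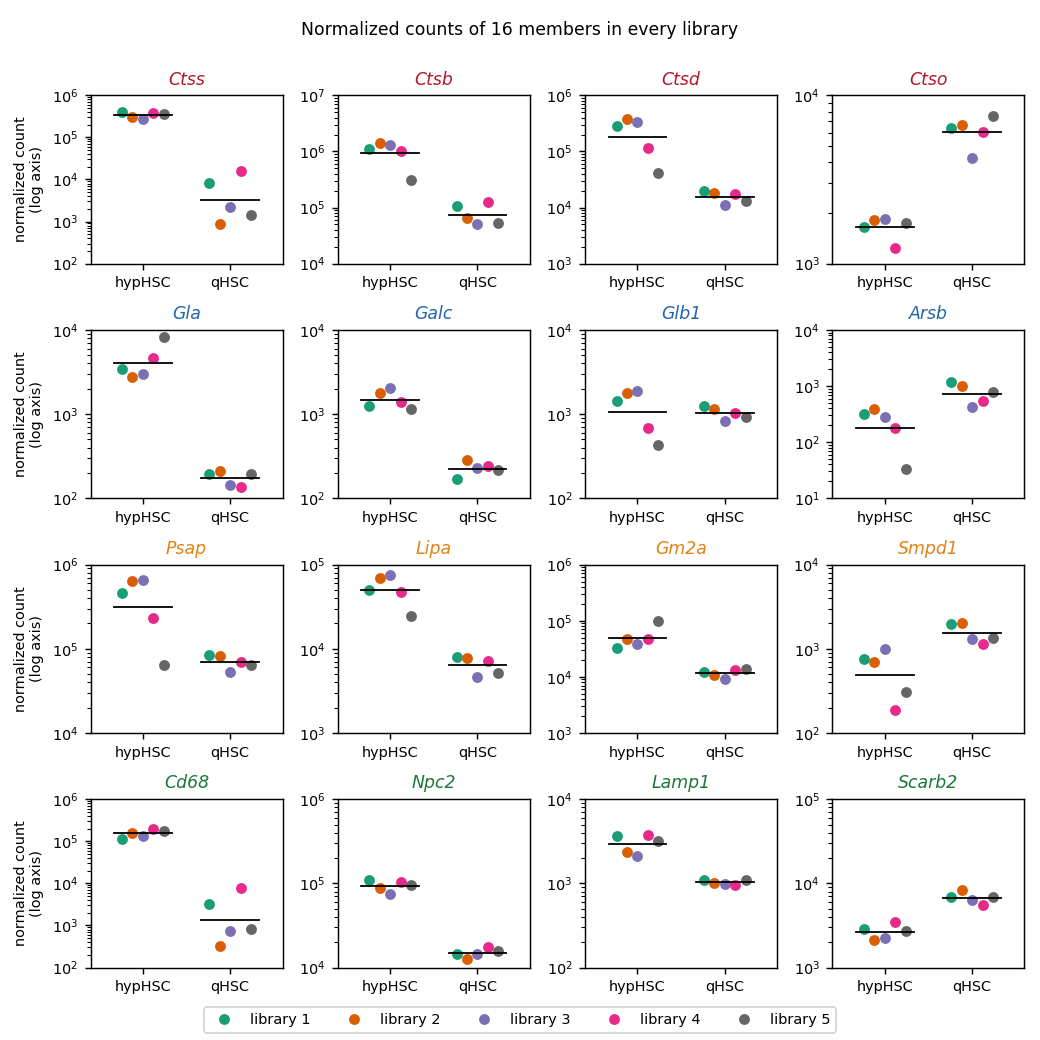
Normalized counts (log axes with separate ranges) of 16 members, 4 per role from the top row down (proteases, glycosidases and sulfatases, lipid hydrolases and activators, membrane and other proteins), with 1 point per library coloured by its number and a line at the geometric mean of the group. *Ctss* and *Cd68* are tight in hypHSCs and spread in qHSCs, *Ctsd* and *Psap* are spread in hypHSCs with hypHSC 5 lowest, and *Gla* and *Gm2a* are highest in hypHSC 5.

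The glycosidases and sulfatases take sugars and sulfate groups off glycolipids, glycoproteins and glycosaminoglycans. *Gla* (chrX:133488898-133501754), the alpha-galactosidase that clears globotriaosylceramide, showed the largest rise of this role. It had 3452.3, 2757.9, 3005.4, 4585.6 and 8187.1 normalized counts in hypHSC 1 to 5 and 195.5, 210.45, 142.5, 137.77 and 194.81 in qHSC 1 to 5. Its groups were far apart, and the highest library was hypHSC 5, which was the lowest for most members. Its fold change on the log2 scale was 4.53 (SE 0.30, adjusted p = 6.4e-07).

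*Galc*, the galactosylceramidase, rose by 2.72 (SE 0.22), from 167.44 to 282.03 counts in qHSCs to 1141.9 to 2031.6 in hypHSCs. *Hexa*, the alpha subunit of beta-hexosaminidase, had the highest level of the role in hypHSCs at 76.5 ± 26.0 FPKM (SD, n = 5). Its normalized counts were 21016, 21072, 18744, 15364 and 9646.6 in hypHSC 1 to 5 and 5193.4, 4086.4, 3324, 4958.7 and 4686 in qHSC 1 to 5. It rose by 1.91 (SE 0.23), with hypHSC 5 again the lowest of its group. *Gusb*, beta-glucuronidase, rose by 1.73 (SE 0.24). The groups of all 3 were separate, and *Hexa* (0.97) and *Gusb* (0.79) fell short of the fold threshold on the scale of the 3 reference genes.

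*Arsb*, the sulfatase of dermatan sulfate, was the one called lower. It had 318.01, 384.08, 276.09, 177.3 and 33.27 normalized counts in hypHSC 1 to 5 and 1192, 1023.3, 415.69, 537.37 and 768.77 in qHSC 1 to 5. The groups did not overlap, but both were wide and hypHSC 5 stood lowest. It fell by 2.00 on the log2 scale (SE 0.61, adjusted p = 0.018). The value was -1.39 without hypHSC 5, still called, and -1.91 without qHSC 1 and 4, not called.

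*Man2b1*, the acidic alpha-mannosidase, had the largest positive value of those not called. In hypHSC 1 to 5 it stood at 9595.6, 14026, 15219, 4492.2 and 1261.4, and in qHSC 1 to 5 at 3642.1, 3164.5, 1720.2, 3035.1 and 2325.8. In all, 4 of 5 hypHSC libraries exceeded the whole qHSC group and hypHSC 5 was below all of it. limma gave a log2 fold change of 1.27 (SE 0.60, adjusted p = 0.10), and without hypHSC 5 it was 1.87 and called. With DESeq2 on all libraries it was 1.72 and called. *Neu1*, the sialidase, had a log2 fold change of 0.85 (SE 0.35), and 1.15 with a call without hypHSC 5.

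*Fuca1*, the alpha-fucosidase, had the highest level of this role in qHSCs at 37.4 ± 6.73 FPKM, against 27.9 ± 3.66 FPKM in hypHSCs (SD, n = 5 each). Its normalized counts were 5384.6, 6324.4, 5698.9, 8461 and 7477.7 in hypHSC 1 to 5 and 6753.7, 6556.5, 5427.6, 6415.1 and 9796.2 in qHSC 1 to 5. These values intermingled, and the log2 fold change was -0.06 (SE 0.19, adjusted p = 0.82).

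The other 7 of this role had wide errors or low counts. *Glb1*, beta-galactosidase, was at 0.07 (SE 0.39), *Idua*, which removes iduronate, at 0.08 (SE 0.57) and *Naglu*, which removes N-acetylglucosamine from heparan sulfate, at 0.40 (SE 0.30). *Manba*, beta-mannosidase, was at -0.65 (SE 0.43) and *Gaa*, the glycogen-degrading alpha-glucosidase, at -1.02 (SE 0.58). The sulfatases *Ids* and *Sgsh* reached at most 95.03 and 69.87 counts. Of the 4 genes whose promoter stretches are printed, *Ctsd* and *Gla* rose, and *Glb1* and *Gaa* were not called. Over the 10 members with GTCACGTG, 5 were higher and 5 not called, with a median of 0.96. Over the 35 without it, 16 were higher, 5 lower and 14 not called, with a median of 0.99. *Ctss*, *Cd68*, *Ctsh* and *Ctsz* had no CACGTG in the window.

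Among the lipid hydrolases and activators, *Lipa* (chr19:34469718-34504874) rose most. It encodes lysosomal acid lipase, which cleaves cholesteryl esters and triglycerides. It had 49284, 69121, 75382, 46664 and 24552 normalized counts in hypHSC 1 to 5 and 7975.6, 7835.4, 4603.3, 7157 and 5104.1 in qHSC 1 to 5. The lowest hypHSC library was still above the highest qHSC library. This was a log2 fold change of 2.95 (SE 0.31, adjusted p = 1.8e-05).

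*Psap* (chr10:60113450-60138378), the precursor of the 4 saposins that present sphingolipids to their hydrolases, was the most expressed lysosomal member of qHSCs at 677 ± 121 FPKM and reached 3239 ± 2213 FPKM in hypHSCs (SD, n = 5 each). Its normalized counts were 463710, 635290, 660500, 231440 and 64923 in hypHSC 1 to 5 and 83288, 82828, 52969, 70576 and 64914 in qHSC 1 to 5. hypHSC 5 lay inside the qHSC range and the other 4 above it. The log2 fold change was 2.15 (SE 0.57, adjusted p = 0.0093). It was 2.72 without hypHSC 5, and 1.62 and not called in the hypHSCs at 12 weeks of diet alone.

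*Gm2a*, the activator that hands GM2 ganglioside to hexosaminidase A, had 32747, 47069, 38444, 47479 and 98101 normalized counts in hypHSC 1 to 5 and 12010, 10944, 9021.7, 13049 and 13591 in qHSC 1 to 5. Like *Gla*, it peaked in hypHSC 5. Its log2 fold change was 2.07 (SE 0.28, adjusted p = 0.00011) and 1.82 without hypHSC 5.

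*Smpd1*, acid sphingomyelinase, moved the other way. It had 749.21, 690.51, 987.09, 188.84 and 305.52 normalized counts in hypHSC 1 to 5 and 1988.5, 2032.1, 1304.6, 1141.5 and 1352.5 in qHSC 1 to 5. The groups were separate, and hypHSC 4 and 5 were the lowest libraries. It fell by 1.62 on the log2 scale (SE 0.42, adjusted p = 0.0086), and the value without hypHSC 4 and 5 was -0.93, which was not called.

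*Asah1*, acid ceramidase, had 9298.7 to 12644 counts in hypHSCs and 4752.1 to 8242.8 in qHSCs, separate groups with a log2 fold change of 0.72 (SE 0.18), under the fold threshold. *Ppt1*, which removes palmitate from proteins, had 9169.8, 13399, 9219.8, 10394 and 7604.8 in hypHSC 1 to 5 and 13704, 14340, 12041, 14272 and 16199 in qHSC 1 to 5. Only hypHSC 2 reached into the qHSC range, and the log2 fold change was -0.52 (SE 0.17). *Arsa*, the sulfatase of sulfatides, had 230.42, 422.38, 294.38, 81.83 and 42.35 in hypHSC 1 to 5 and 362.94, 405.57, 255.87, 129.21 and 145.36 in qHSC 1 to 5. Its groups overlapped widely, with a log2 fold change of -0.56 (SE 0.62).

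*Cd68* (chr11:69555039-69556996), a heavily glycosylated membrane protein of the LAMP family, had the largest log2 fold change of all 45 members by limma. It had 115260, 160720, 133590, 196970 and 179810 normalized counts in hypHSC 1 to 5 and 3242, 332.3, 730.61, 7892.9 and 815.22 in qHSC 1 to 5. As for *Ctss* and *Ctsh*, the groups were far apart and qHSC 4 and 1 were the highest of their group. Its fold change on the log2 scale was 6.80 (SE 0.71, adjusted p = 2e-05), 7.43 without qHSC 4 and 8.05 without qHSC 1 and 4. With DESeq2 it was 5.97, level with *Ctss* (5.97). Of all genes tested, 2.97% were called with a log2 fold change of at least 5, and *Ctss* and *Cd68* were the 2 members among them. Per exon length *Cd68* reached 2719 ± 425 FPKM in hypHSCs and 58.5 ± 71.4 FPKM in qHSCs (SD, n = 5 each).

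The qHSC libraries in which these 3 members were high were also those with the most macrophage transcripts. The core macrophage list summed to 53838 and 122880 in qHSC 1 and 4 and to 6741.3, 12043 and 10208 in qHSC 2, 3 and 5. The Kupffer cell list summed to 19247 and 44861 in qHSC 1 and 4 and to 1270.4, 1584.8 and 1919.7 in qHSC 2, 3 and 5. *Ctsb* was also highest in qHSC 4 and 1 (123400 and 106260, against 51534 to 64857), as was *Ctsc* by less (21126 and 15396, against 11694 to 14220). *Lamp1*, *Npc2* and *Gla* showed no such split. Without qHSC 1 and 4, 23 members were higher and 4 lower, with 2391 and 2483 of all 14630 genes tested. The part of macrophage RNA in these values was not tested.

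**Figure D4:**
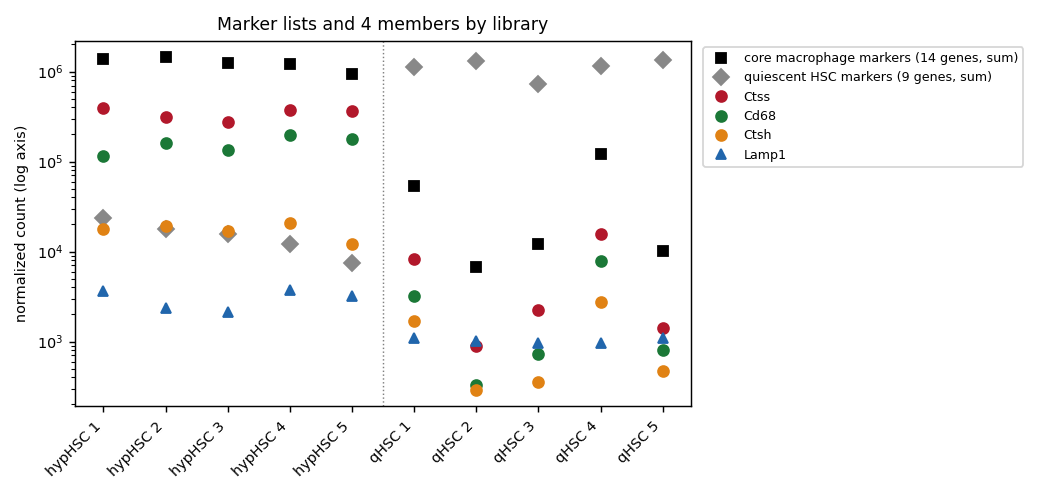
Normalized counts (log axis) in each library of *Ctss*, *Cd68*, *Ctsh* and *Lamp1*, with the summed counts of 14 core macrophage and 9 quiescent HSC markers; the dotted line parts hypHSCs from qHSCs. In qHSCs, *Ctss*, *Cd68* and *Ctsh* are highest in the 2 libraries with macrophage sums of 53838 and 122880, while *Lamp1* stays between 962.65 and 1097.9.

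*Npc2* and *Npc1*, which hand over cholesterol and carry it out of the lysosome, rose with little spread. *Npc2* had 74524 to 108530 counts in hypHSCs and 12561 to 17677 in qHSCs, a log2 fold change of 2.63 (SE 0.18). *Npc1* had 3327.7 to 4369.6 and 607.8 to 860.56, a log2 fold change of 2.31 (SE 0.16). hypHSC 5 was not set apart in either gene. *Grn*, the progranulin precursor, had the highest level of this role in qHSCs on the joint exon length, 97.7 ± 21.2 FPKM (SD, n = 5). On the length of the canonical transcript alone, *Grn* (162 FPKM) was below *Lamp2* (305 FPKM) in qHSCs. It had 48299, 57033, 49056, 20593 and 15798 normalized counts in hypHSC 1 to 5 and 15074, 13942, 11021, 12977 and 8847.6 in qHSC 1 to 5. The groups were separate by a small margin at hypHSC 5, and the rise was 1.47 (SE 0.36). *Mcoln1*, the lysosomal calcium channel TRPML1, rose by 1.40 (SE 0.23). On the scale of the 3 reference genes neither *Grn* (0.53) nor *Mcoln1* (0.46) was called.

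*Lamp1* (chr8:13209161-13225338), an abundant glycoprotein of the limiting membrane, had 3676, 2372.8, 2145.5, 3764.2 and 3229.2 normalized counts in hypHSC 1 to 5 and 1097.9, 1019.9, 973.1, 962.65 and 1097.7 in qHSC 1 to 5. The groups were separate and the qHSC libraries nearly level. On the log2 scale the difference was 1.52 (SE 0.19, adjusted p = 6.3e-05), and 0.59 on the scale of the 3 reference genes. Of the exon bases of *Lamp1*, 49.4% are covered by genes on the other strand, among them *Grtp1* (34.6 ± 15.5 counts in hypHSCs and 6.45 ± 6.10 in qHSCs, SD, n = 5 each). The counting did not separate the strands, and how reads on the shared bases were then assigned is not given in the sources used here.

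*Scarb2* was the one member of this role called lower. It encodes the receptor that carries glucocerebrosidase to the lysosome, and had 2902.5, 2121.2, 2264.4, 3523.9 and 2704.3 normalized counts in hypHSC 1 to 5 and 6880.5, 8373, 6344.1, 5465.3 and 6850 in qHSC 1 to 5. No values overlapped, and it fell by 1.34 on the log2 scale (SE 0.18, adjusted p = 0.00011). *Lamp2*, the partner of *Lamp1* in the membrane and in chaperone-mediated autophagy, had 8247.6 to 11549 in hypHSCs and 12925 to 20520 in qHSCs. These groups were separate too, with a log2 fold change of -0.77 (SE 0.17), under the fold threshold.

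*Cln3*, a transmembrane protein mutated in juvenile neuronal ceroid lipofuscinosis, had 2121, 2661.6, 2730.1, 1393.2 and 282.83 normalized counts in hypHSC 1 to 5 and 1036.3, 1004.6, 858.16, 1067.9 and 1029.5 in qHSC 1 to 5. The other 4 hypHSC libraries were above all qHSCs and hypHSC 5 was far below them. The log2 fold change was 0.53 (SE 0.53, adjusted p = 0.44) and, without hypHSC 5, 1.11 with a call.

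The members varied widely within hypHSCs, and mostly in the same library. hypHSC 5 was the lowest hypHSC library for 29 of 45 members (64.4%) and for 38.1% of all genes tested. In 24 members (53.3%, against 37.96% of all genes tested) it was at least 1 log2 unit under the mean of hypHSC 1 to 3. In 2 members (4.44%, against 16.3%), *Gla* (1.41 above) and *Gm2a* (1.32 above), it was at least 1 unit over it. *Man2b1* (-3.36), *Psap* (-3.18), *Cln3* (-3.14) and *Ctsd* (-3.01) had large deficits, whereas *Ctss* (0.17), *Cd68* (0.40), *Npc2* (0.08) and *Lamp1* (0.24) had none. On the second principal component of all genes hypHSC 5 lay at -168, hypHSC 4 at -20.6 and hypHSC 1, 2 and 3 at 74.5 to 88.4.

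This spread moved with the base composition of the genes. Over all genes tested with an exon sequence, the log2 ratio of hypHSC 5 to the mean of hypHSC 1 to 3 had a median of 0.28 for 4042 genes under 45% GC and of -1.52 for 2177 genes at 55% GC or more. Among the members, 9 were under 45% GC with a median of -0.38 and 4 (*Ctsa*, *Ctsd*, *Gaa* and *Sgsh*) were at 55% or more with a median of -3.01. Across the 45 members Pearson's r between GC content and this ratio was -0.33 and Spearman's rho -0.41, as a description of genes that share their libraries. The part of base composition in the fold changes was not tested. Correcting each library for GC content gave 25 members higher and 5 lower, with 2849 and 2814 of all 14174 genes fitted. The median log2 fold change over all genes was then -0.035. The diet time of the labels gave another grouping: *Psap* averaged 549500 counts at 13 weeks and 318950 at 12 weeks, but hypHSC 3, at 12 weeks, had the most of all (660500).

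**Figure D5:**
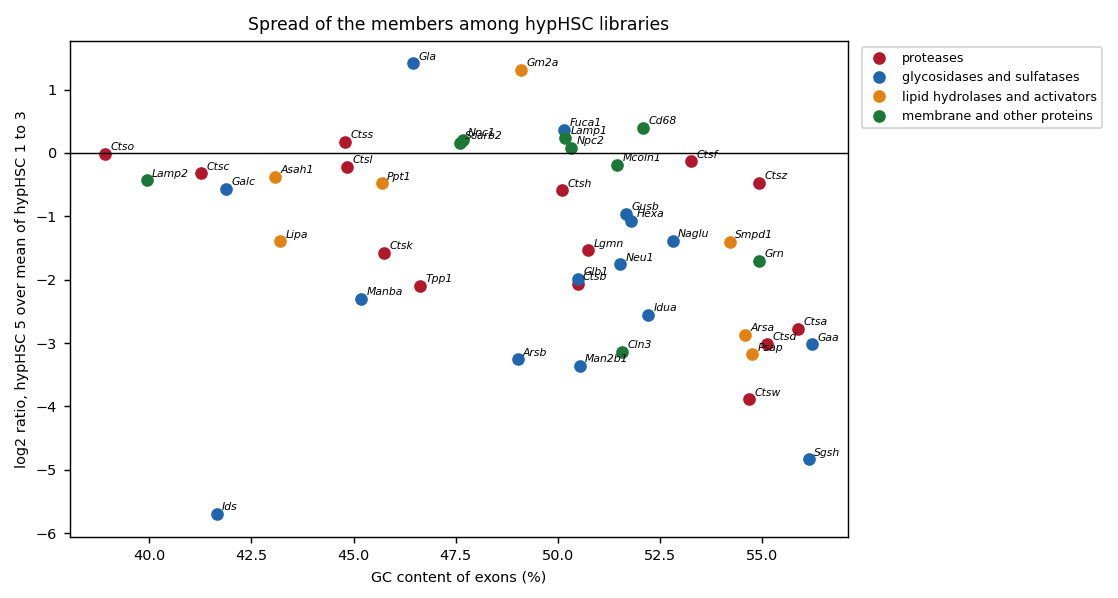
GC content of the exons (%, horizontal) of each of the 45 members against the log2 ratio of its normalized count in hypHSC 5 to the mean of hypHSC 1 to 3 (vertical), coloured by role. Most members lie below 0, with *Gla* and *Gm2a* above 1, and the 4 members at 55% GC or more lie between -4.84 and -2.78.

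Genes that acidify, supply or regulate the lysosome but are not among the 45 were counted in 6 further lists, to be read against the 17.8% higher and 21.7% lower of all genes tested. Of 22 tested subunits and accessory proteins of the vacuolar proton pump, 15 were higher (68.2%) and 0 lower by limma (2 with a negative value at an unadjusted p under 0.05, and 0 called lower by DESeq2 or edgeR). *Atp6v0d2*, the subunit isoform of osteoclasts and macrophages, ran from 15616 to 17973 in hypHSCs and from 0 to 11.02 in qHSCs. *Tcirg1*, the a3 subunit, rose by 2.85 (SE 0.40), and *Atp6v0e2* had the lowest value of the list, -2.83 (SE 1.27, adjusted p = 0.087).

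Of 18 sorting genes 5 were higher (27.8%) and 1 lower (5.56%). *Sorl1*, a sorting receptor of the sortilin family, had 733.32 to 1409.6 counts in hypHSCs and 0 to 9.41 in qHSCs, where it was at or near the floor, so no fold is given. *Sort1*, of the same family, rose by 4.42 (SE 0.26), and *Igf2r*, the large mannose 6-phosphate receptor, by 2.85 (SE 0.35). The 2 genes of the enzyme that makes the mannose 6-phosphate tag moved in opposite directions, *Gnptab* up by 2.18 (SE 0.29) and *Gnptg* at -1.39 (SE 0.42).

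Of 18 tested regulators 11 were higher (61.1%) and 1 lower (5.56%). All 4 factors of the CLEAR-binding family rose: *Tfec* by 4.86 (SE 0.85), *Mitf* by 3.75 (SE 0.81), *Tfeb* by 3.01 (SE 0.55) and *Tfe3* by 1.21 (SE 0.31), the last reaching 0.27 on the scale of the 3 reference genes. Counts reached at most 883.07 for *Tfeb* and 430.13 for *Tfec*. *Rragd*, a Rag GTPase of mTORC1 signalling at the lysosome, fell by 2.00 (SE 0.38).

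Of 13 cathepsin inhibitor genes 4 passed the filter, and 1 of them was called. *Cstb*, the intracellular cystatin B, rose by 2.75 (SE 0.18), from 7121.4 to 9139.6 counts in qHSCs to 41275 to 65977 in hypHSCs. *Cst3*, the secreted cystatin C, had 87386 to 196100 in hypHSCs and 114300 to 143970 in qHSCs, a log2 difference of 0.02 (SE 0.26).

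Of 21 other lysosomal enzymes tested 9 were higher (42.9%) and 1 lower (4.76%), led by *Acp5*, tartrate-resistant acid phosphatase, at 5.03 (SE 0.51), with *Arsk* at -1.16 (SE 0.30) the one that fell. Of 25 other lysosomal membrane genes 8 were higher (32%) and 2 lower (8%). *Slc11a1*, the metal ion transporter of phagosomes, rose by 5.67 (SE 0.90), and *Laptm4b* and *Laptm4a* fell by 3.17 (SE 0.28) and 1.57 (SE 0.17).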

How the data were processed

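RNA-seq was analysed in 5 hypHSC and 5 qHSC libraries. The authors aligned the reads with STAR to mm39, counted them per gene with featureCounts without strand, and deposited a signal per gene, the count divided by the DESeq2 size factor. Dividing by the value of 1 read returned whole reads for 100% of values (tolerance 0.005), and these served FPKM, DESeq2 and edgeR. The tools and the build are those of the submitters' processing notes.

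Symbol-bearing genes that reached 10 normalized counts in 5 or more libraries (14630) were tested with limma 3.58.1 (R 4.3.3, eBayes with trend) on log2(normalized count + 1). Folds of low genes depend on this step in either direction. They were larger in size than with DESeq2 for *Ctsw* (-1.23 against -0.067), *Ids* (-1.24 against -0.49) and *Sgsh* (-1.55 against -1.01). For the neutrophil marker *Retnlg* the fold was smaller (6.52 against 9.57). edgeR 4.0.16 and DESeq2 1.42.0 on the recovered reads, other scalings, filters and pseudocounts, limma treat, the replicate number as a block, hypHSCs at 12 weeks alone, and each library left out were alternatives. The deposited unit is not a raw count, so limma and not DESeq2 gave the main values. The limma step was tested on simulated counts with few changed genes and the same spread in both groups. That test cannot show how the step behaves where many genes change and hypHSC libraries differ widely, as here. A floor of 3 reads covers counting error only. Exon lengths, GC content and promoters came from GRCm39 and its GENCODE annotation. Members and lists were chosen with earlier results of these data known. Full values are given, within each role, for the largest called rise and fall, the highest FPKM of each group, up to 2 genes not called whose groups overlap, and *Ctss*, *Cd68* and *Lamp1*. *Ctsd*, *Ctsh* and *Gm2a* were added after their values were seen, as were the fits without qHSC 1 and 4, without hypHSC 4 and 5, and with GC correction.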

Additional observations from a re-analysis of the deposited data

Results flagged for a closer look

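Among the 90 sets of 5 libraries (45 members in each group), 3 had a library whose gap to its nearest neighbour took up more of the range than Dixon's 95% limit for 5 samples (0.71). Chance alone passes this limit in about 1 of 20 sets. *Lgmn* in hypHSC 5 had 24086 normalized counts, and the other hypHSCs had 68512 to 79180. *Gm2a* in hypHSC 5 had 98101, and the other hypHSCs had 32747 to 47479. *Tpp1* in qHSC 3 had 8006.1, and the other qHSCs had 12162 to 13166. Both hypHSC values were in the library that was lowest for most members, low for *Lgmn* and high for *Gm2a*.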

How the results depend on the processing

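None of the 26 called members changed direction under the alternatives run, and 15 kept their call in each of them. Members higher and lower numbered 21 and 5 in the main values, 25 and 5 with DESeq2, with edgeR and with GC correction, 23 and 5 with TMM factors or the upper quartile, 16 and 2 with limma treat, and 15 and 10 on *Hprt*, *Pgk1* and *Actb*. Calls over all genes moved too, at 3014 higher and 2847 lower with DESeq2, 2786 and 2550 with edgeR, and 2849 and 2814 with GC correction. They were 2708 and 3041 with TMM factors, 2827 and 2916 with the upper quartile, and 1465 and 1626 with limma treat. The scaling on the 3 reference genes put the median of all genes at -1.13 (same total -0.55, DESeq2 -0.001, main -0.20). It put calls over all genes at 1467 higher and 7006 lower, against 2602 and 3177 in the main values. On it glycosidases had 2 higher and 3 lower, lipid genes 3 lower, membrane genes 3 higher and 2 lower, proton pump genes 7 higher and 5 lower, sorting genes 2 lower, regulators 5 higher and 5 lower, inhibitors 2 lower, other enzymes 3 higher and 8 lower, and other membrane genes 9 lower. With the same total, membrane genes had 2 lower, proton pump genes 1 lower, regulators 7 higher and 3 lower, and other enzymes 4 lower. With limma treat, glycosidases, lipid and membrane genes had 0 lower each. Without qHSC 1 and 4 glycosidases had 0 lower, without hypHSC 4 and 5 lipid genes had 0 lower, and with GC correction other enzymes had 0 lower. Proton pump genes had 1 lower with a pseudocount of 5 and at 12 weeks alone. Leaving out single libraries gave 0 to 1 proton pump genes lower (1 without hypHSC 1, 4 or 5), 0 to 1 sorting genes, 0 to 2 inhibitors and 1 to 3 other enzymes, the sorting, inhibitor and enzyme extremes all without hypHSC 5. The replicate numbers did not pair the samples (correlations of same-numbered deviations 0.0082 to 0.13). With the replicate block 21 members were higher and 5 lower (all genes 2557 and 3229), and 1 proton pump gene was lower. Of the 19 members not called, 10 changed sign. *Tpp1* was at 0.19 with DESeq2 and edgeR, 0.086 with the upper quartile, 0.034 with TMM, 0.077 with GC correction, 0.57 without hypHSC 4 and 5, 0.069 without qHSC 1 and 4, and -0.20 to 0.35 without single libraries. *Fuca1* was at 0.0031 with DESeq2, 0.0024 with edgeR, 0.050 with the upper quartile, 0.055 at 12 weeks, 0.090 with GC correction, and -0.15 to 0.069 without single libraries. *Glb1* was at -0.29 with the same total, -0.87 on the 3 reference genes, -0.31 at 12 weeks and -0.14 to 0.40 without single libraries, and *Idua* at -0.27, -0.85, -0.41 and -0.22 to 0.48. *Naglu* was at -0.54 on the 3 reference genes and -0.0094 at 12 weeks. On the 3 reference genes *Neu1* was at -0.089, *Asah1* at -0.22 and *Cln3* at -0.41. Without hypHSC 4 and 5 *Sgsh* was at 0.39 and *Arsa* at 0.38. The causes were not tested. Genes near the floor, such as *Ctsw*, *Ids* and *Sgsh*, are limited by depth.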
